A study of Danio rerio with 11 samples.

Results

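The 6 genes gata1a, gata2a, tal1, lmo2, drl and nfe2 were followed across the 11 arrays of a zebrafish study of spadetail (spt) mutants, in which the T-box transcription factor gene tbx16 is mutated. They were chosen by name, with earlier results of these data known, as transcription regulators that specify or mark primitive blood. The choice was made out of 8793 genes that the array annotation names by a single symbol. Comparisons of the 6 with all probe sets are thus not independent of these data. Each of the 6 genes was read by 1 probe set, so that 6 of the 15502 probe sets tested belong to them. The array used was an Affymetrix expression array, on which a probe set gives a signal that compares samples for that probe set but not one gene with another.

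The study compared homozygous spt (b104/b104) embryos with wild-type (+/+) embryos at 2 stages, from a line with a GFP transgene driven by the pax2a promoter. At the 4/5-somite stage, GFP-positive intermediate mesoderm cells were sorted from dissected trunks of pooled embryos and their RNA was amplified, giving 3 spt arrays (replicates 3, 4 and 5) and 2 wild-type arrays (replicates 1 and 2). The sorted cells of each sample were few, so that the study did not measure the purity of the sort on them. At the 21-somite stage, tail tissue of pooled embryos, selected neither by embryo nor by cell for GFP, was used without amplification, giving 3 spt arrays (replicates 4, 5 and 6) and 3 wild-type arrays (replicates 1, 2 and 3), each replicate from a separate clutch. A further wild-type array of the earlier stage was set aside by the study because it stood apart, with low red cell markers such as gata1, and is not analysed here. That choice bears directly on gata1a and on other red cell markers. At the earlier stage it may also bear on any blood gene that varies with them.

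In the zebrafish embryo, primitive red blood cells form from posterior lateral and intermediate mesoderm, which lies beside the precursors of vessels and pronephros. Tal1 (a basic helix-loop-helix factor) and the LIM-only adaptor Lmo2 act together in precursors of blood and endothelium, and in mammals they form a DNA-bound complex with LDB1, an E protein and a GATA factor. Gata2 proteins act in early blood progenitors and in endothelium, whereas Gata1 drives the red cell programme, including globin and heme synthesis genes. The zinc finger gene drl (draculin) marks zebrafish lateral mesoderm and early blood, and nfe2 encodes a basic leucine zipper factor that in mammals pairs with small MAF proteins at globin genes and is needed for platelet formation.

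The stages differed in how many probe sets gave signal and in how alike the arrays were. Deposited signals of 100 or more were given by 67.6% to 71.1% of probe sets on arrays of the earlier stage and by 80.8% to 84.8% on those of the later one. Correlations between arrays of the same genotype (log2 signals, all probe sets) lay between 0.864 and 0.896 at the earlier stage and between 0.958 and 0.990 at the later one. Correlations between genotypes lay between 0.840 and 0.903 at the earlier stage and between 0.945 and 0.980 at the later one. At both stages they overlapped those within a genotype. Stage, tissue, sorting and amplification cannot be told apart in this design, and in pooled tissue fewer blood precursors and less RNA per precursor cannot be told apart either. The mutated gene itself, tbx16, was dim at the 4/5-somite stage on its brighter probe set (78.6, 98.8 and 94.3 in spt; 102 and 103 in wild type). At the 21-somite stage it had signals of 424, 409 and 445 in spt tails, against 1485, 958 and 1296 in wild-type tails (log2 fold change -1.49, adjusted p = 0.00650 by limma with Benjamini-Hochberg adjustment), and on its dimmer probe set the value was -0.75 (adjusted p = 0.108).

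In the sorted cells of the 4/5-somite stage, all 6 genes had lower signals in spt than in wild type, and for each of them every spt array lay below both wild-type arrays. The differences were large for tal1, drl, gata1a and gata2a and small for nfe2 and lmo2. Lower values in spt were also found for 50.9% of all probe sets, but the median log2 fold change of the 6 was -3.40, against -0.01 over all probe sets. All signals given here were normalized within their stage, whereas counts of probe sets whose groups did not overlap were made on the deposited signals. Log2 fold changes are spt minus wild type on the log2(signal + 16) scale, which understates the change of dim genes.

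**Figure D1:**
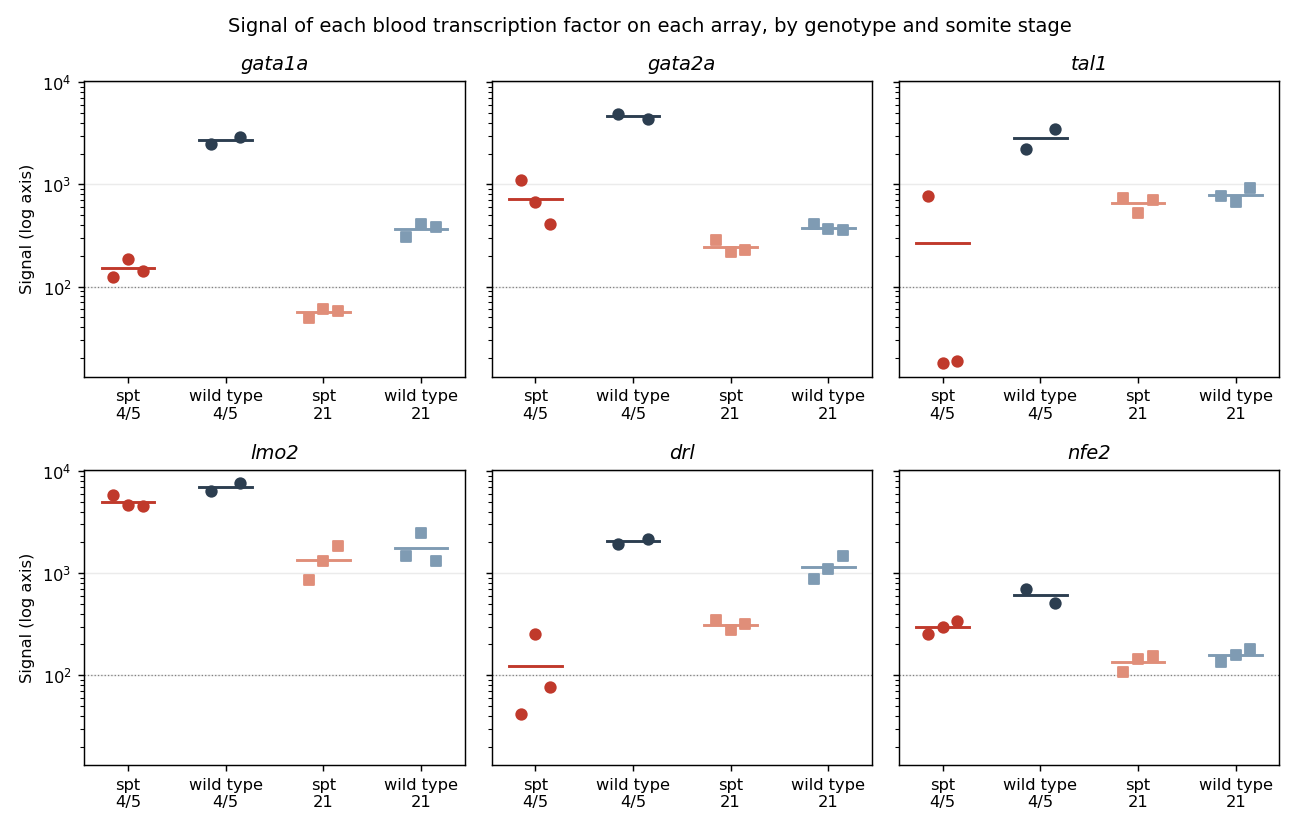
Signal of the 6 genes on each array (log axis), with spt to the left of wild type within each stage. Points are arrays, horizontal bars are group means, and the dotted line is a signal of 100; at the earlier stage every spt point lies below the wild-type points, with tal1 in spt replicate 3 (763) far above the other spt arrays.

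The GATA factors were read as follows. Gata1a, the regulator of red cell differentiation, had signals of 123, 186 and 143 in spt cells, against 2496 and 2922 in wild-type cells. Its mean was 151 ± 32.2 (SD, n = 3) in spt and 2709 ± 301 (SD, n = 2) in wild type. No spt array reached more than 6.88% of the wild-type mean, and the log2 fold change was -4.04 ± 0.33 (SE), the 10th lowest of the 15502 probe sets.

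Gata2a, the progenitor and endothelial GATA factor, had 1102, 667 and 409.9 in spt cells, against 4924 and 4364 in wild-type cells, with a log2 fold change of -2.76 ± 0.47 (SE). The spt signals were 8.82% to 23.7% of the wild-type mean. The spread among spt arrays was wider than for gata1a, the highest being 2.69 times the lowest, against 1.51 times for gata1a.

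For the complex that joins GATA factors to Tal1, the pattern was split. Tal1 had signals of 763, 17.7 and 18.8 in spt cells, against 2203 and 3502 in wild-type cells. Spt replicates 4 and 5 were thus under 100, where signals are dim and, with no detection calls used, were not shown to be above background, so that they bound tal1 at no more than 3.51% of the wild-type mean (100 over that mean). Replicate 3 was at 26.8%. The log2 fold change of tal1 was -4.85 with an SE of 1.52 and a 95% confidence interval from -8.71 to -0.98. Without spt replicate 3 it was -6.34 ± 0.37 (SE, adjusted p = 0.215), a value set by the dim signals of replicates 4 and 5.

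Lmo2, the partner of Tal1, kept most of its signal. It had 5814, 4687 and 4562 in spt cells, against 6428 and 7591 in wild-type cells, that is 65.1% to 82.9% of the wild-type mean. The log2 fold change was -0.48 ± 0.17 (SE), with a 95% confidence interval from -0.91 to -0.05. The interval for gata1a (-4.88 to -3.21) lies wholly below it.

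The zinc finger gene drl had signals of 41.9, 254 and 76.7 in spt cells, against 1922 and 2167 in wild-type cells. The mean was 124 ± 113 (SD, n = 3) in spt and 2045 ± 173 (SD, n = 2) in wild type, and the log2 fold change of -4.18 ± 0.70 (SE) rested in part on dim signals. The spt signals on replicates 3 and 5 were under 100, which bounds them at 4.89% of the wild-type mean, and without replicate 4 the log2 fold change was -4.82 ± 0.36 (SE).

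Nfe2, the leucine zipper factor, was less reduced in value. It had 253, 294 and 343 in spt cells, against 695 and 513 in wild-type cells, with a log2 fold change of -0.98 ± 0.31 (SE) and a 95% confidence interval from -1.78 to -0.18. Spt replicate 3 was the highest of the spt arrays for gata2a, tal1 and lmo2 and the lowest for gata1a, drl and nfe2.

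None of these differences passed limma's test after Benjamini-Hochberg adjustment over all probe sets. The adjusted p was 0.0910 for gata1a, 0.345 for drl, 0.377 for gata2a, 0.667 for tal1, 0.668 for nfe2 and 0.679 for lmo2. Across the array, 0% of probe sets (0 of 15502) passed in either direction with limma, the smallest adjusted p being 0.0634, while 1116 (7.2%) had an unadjusted p under 0.05; an unequal-variance test on the same values also called 0, with 791 at an unadjusted p under 0.05. All 6 genes had an unadjusted limma p under 0.05 with lower values in spt, against 3.63% of all probe sets. In all 6 the groups did not overlap, against 13.7% of all probe sets. The wild-type arrays compared here were those left after the study set another aside partly for low red cell markers. With 1 array left out at a time, between 3 and 5 of the 6 kept an unadjusted p under 0.05, with 3 doing so without wild-type replicate 1. With the study's thresholds for candidate genes at this stage (unadjusted p under 0.05 and at least 1.5-fold) put on limma's values, not on the study's own normalization and test, 5 of the 6 were lower in spt, lmo2 being the exception, against 2.73% of all probe sets. The study itself reported a high false-positive rate for its candidates of this stage when they were stained by in situ hybridization. Drl was among those it did find reduced. With the unequal-variance test, 3 of the 6 had an unadjusted p under 0.05.

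**Figure D2:**
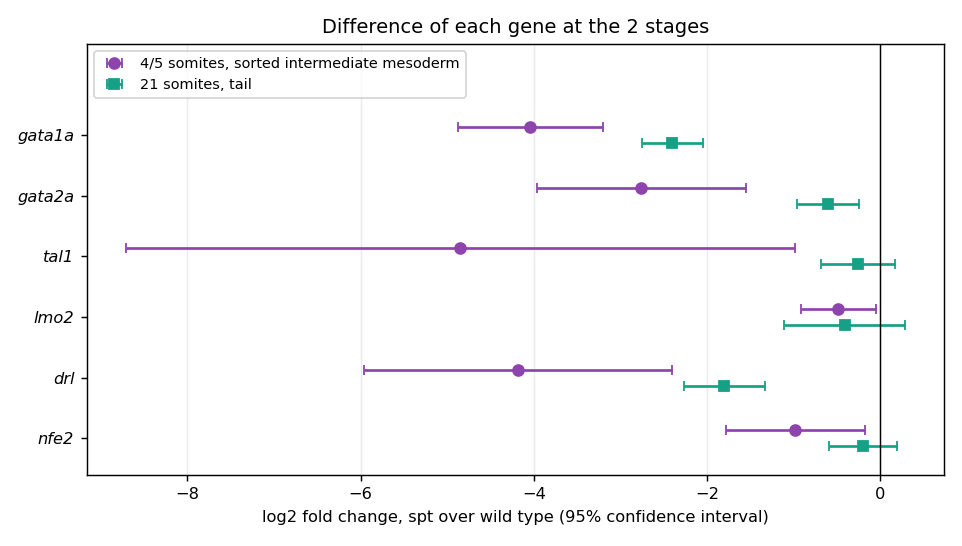
Log2 fold change (spt minus wild type) of the 6 genes at either stage, with 95% confidence intervals from limma. The interval of tal1 at the earlier stage is the widest of the 12 (-8.71 to -0.98), and those of gata1a lie far below 0 at both stages.

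In tails of the 21-somite stage, gata1a and drl fell in spt, and the other 4 genes did not pass the test. Gata1a had signals of 49.7, 60.3 and 57.8 in spt tails, against 305, 412 and 379 in wild-type tails, a mean of 55.9 ± 5.54 and 366 ± 54.8 (SD, n = 3 each). The log2 fold change was -2.40 ± 0.16 (SE, adjusted p = 0.000187 by limma). All 3 spt signals lie in the dim range of the array, under 100, and so bound gata1a in spt tails at no more than 27.3% of the wild-type mean.

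Drl, the lateral mesoderm and blood marker, had 344, 277 and 319 in spt tails, against 876, 1108 and 1481 in wild-type tails. The spt signals were 24.0% to 29.8% of the wild-type mean, and the log2 fold change was -1.80 ± 0.21 (SE, adjusted p = 0.00508 by limma). For both genes the groups were clearly apart.

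Gata2a had 283, 219 and 230.4 in spt tails, against 409.6, 366 and 356 in wild-type tails. Every spt array was below every wild-type array, yet the log2 fold change of -0.60 ± 0.16 (SE) had an adjusted p of 0.219. The spt signals were 58.1% to 74.9% of the wild-type mean, above the 8.82% to 23.7% seen in the earlier cells.

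Tal1 had 737, 527 and 701 in spt tails, against 763, 667 and 922 in wild-type tails, and the groups overlapped. Its log2 fold change was -0.26, with a 95% confidence interval from -0.68 to 0.17 (adjusted p = 0.981 by limma). The earlier estimate of -4.85 lies outside that interval but was itself imprecise. The difference of tal1 between stages did not pass limma's interaction test (adjusted p = 0.295). Tal1 is also used in endothelium and in spinal cord neurons, both of which can be present in unsorted tail. The part of either in the tal1 signal was not tested.

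Lmo2, which endothelium also uses, had 846, 1313 and 1829.8 in spt tails, against 1477, 2496 and 1301 in wild-type tails. The groups overlapped widely, and the log2 fold change was -0.41, with a 95% confidence interval from -1.11 to 0.29 (adjusted p = 0.986). Nfe2 had 108, 144 and 156 in spt tails, against 135, 157 and 182 in wild-type tails, with overlapping groups and a log2 fold change of -0.20 (95% confidence interval from -0.60 to 0.19, adjusted p = 1).

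At the 21-somite stage 2 of the 6 genes passed the adjusted test with lower signals in spt, against 0.51% of all probe sets, and 3 (gata1a, drl and gata2a) had an unadjusted p under 0.05, against 3.54%. The same 3 passed the study's thresholds for this stage (the same p with a smaller fold), again put on limma's values, against 3.35%. The groups did not overlap for 3 of the 6, against 5.28% of all probe sets, and all 6 values were below 0, as were 49.9% of all probe sets. The median log2 fold change of the 6 was -0.50, against 0.00 over all probe sets. Both calls held when each array was left out in turn, whereas the unequal-variance test gave adjusted p = 0.416 for gata1a and 0.593 for drl.

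The difference between spt and wild type was compared between stages by the interaction of genotype and stage in a limma fit of all 11 arrays. That fit used 1 spread per probe set for both stages, although arrays of the earlier stage were less alike. It can thus understate the noise of the earlier stage. For gata1a the SE of the interaction (0.30) was below that of the earlier stage alone (0.33). For all 6 genes the log2 fold change was less negative in the 21-somite tails than in the 4/5-somite cells. The change was 1.64 ± 0.30 (SE) for gata1a, with an adjusted p of 0.0446, and it lost the call under 12 of 15 alternative settings, over which its adjusted p ran between 0.0111 and 0.187. It was 4.59 ± 1.45 (SE) for tal1 (adjusted p = 0.295), 2.38 ± 0.70 for drl (adjusted p = 0.247) and 2.16 ± 0.47 for gata2a (adjusted p = 0.0970). For nfe2 it was 0.78 ± 0.31 (adjusted p = 0.453) and for lmo2 0.08 ± 0.45 (adjusted p = 0.983). Thus 1 of 6 passed the adjusted test, against 0.484% of all probe sets, and 5 of 6 had an unadjusted p under 0.05, against 9.28%.

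**Figure D3:**
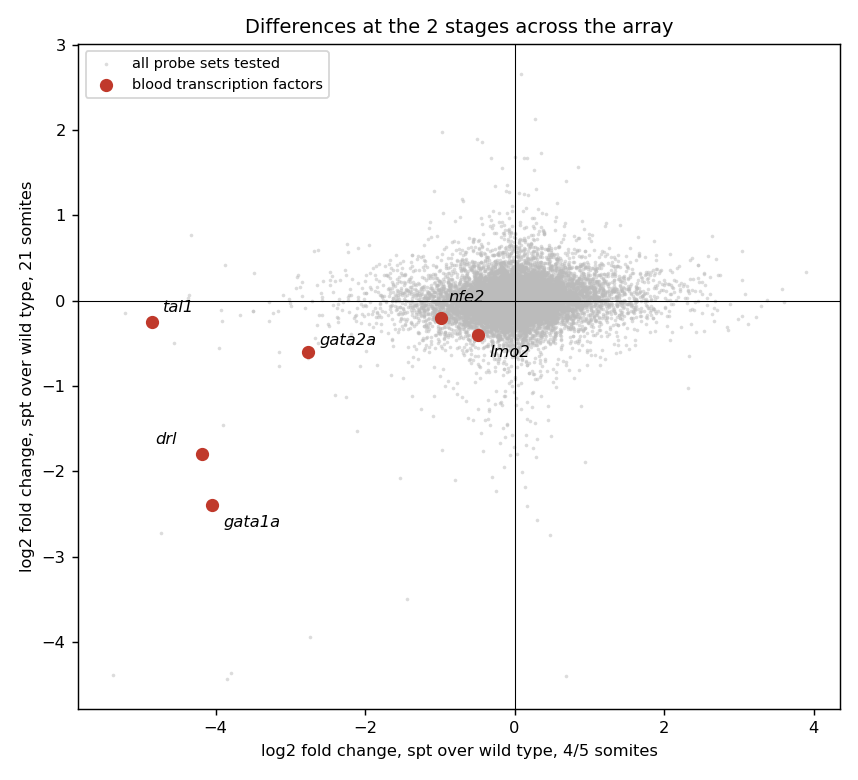
Log2 fold change (spt minus wild type) at the 4/5-somite stage (horizontal) against that at the 21-somite stage (vertical) for all probe sets in grey and the 6 genes named. Gata1a (-4.04 and -2.40) and drl (-4.18 and -1.80) are low on both axes, tal1 (-4.85 and -0.26) is low on the horizontal axis alone, and lmo2 (-0.48 and -0.41) lies close to 0 on both.

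The listed partners of the 6 were divided in direction at both stages. Of 19 genes listed as partners of the Tal1-Lmo2-Gata complex and of Nfe2, 9 were on the array. At the 4/5-somite stage 4 of the 9 had lower and 5 had higher values in spt (median log2 fold change 0.22), and at the 21-somite stage the counts were again 4 and 5 (median 0.05), with none passing the adjusted test at either stage. The adaptor ldb1a, whose mammalian counterpart bridges LIM-only and GATA proteins, had 6168, 4395 and 6020 in spt cells at the 4/5-somite stage, against 2873 and 3787 in wild-type cells (log2 fold change 0.73 ± 0.23, adjusted p = 0.669 by limma). Ssbp3b, a member of the family that stabilises Ldb1, had 2991, 2579 and 2231 in spt cells, against 1071 and 1707 in wild-type cells (log2 fold change 0.92 ± 0.32, adjusted p = 0.678 by limma). These were the only partners with an unadjusted p under 0.05 at that stage, and they were picked out after their values were seen. Among the other partners, the E protein genes tcf12 and tcf3a had log2 fold changes of -0.58 (adjusted p = 0.733) and -0.37 (adjusted p = 0.807) at the 21-somite stage. The LIM-only gene lmo4b had 809.7, 741 and 866 in spt tails, against 1374, 1256 and 1664 in wild-type tails (log2 fold change -0.81 ± 0.15, adjusted p = 0.0641 by limma).

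Of 31 other transcription factors of blood and blood vessels, 20 were on the array. At the 4/5-somite stage 18 of the 20 had lower values in spt, against 50.9% of all probe sets (median log2 fold change -0.35). None passed the adjusted test, and 4 had lower values with an unadjusted limma p under 0.05, against 3.63% of all probe sets. These 4 were picked out here after their values were seen. Cebpa, a myeloid factor, had 101, 69.6 and 115 in spt cells, against 1514 and 1764 in wild-type cells (log2 fold change -3.91 ± 0.31, adjusted p = 0.0910 by limma). Hhex, a homeobox gene of early endothelium and blood, had 251, 87.3 and 74.1 in spt cells, against 795 and 1407 in wild-type cells (log2 fold change -2.99 ± 0.59, adjusted p = 0.465 by limma), and its highest spt signal, like that of tal1, was on replicate 3. The remaining 2 were klf3 (-1.79) and the myeloid factor spi1b. Spi1b had log2 fold changes of -0.37 on the probe set with the higher mean signal over both stages and -1.83 on the other. In these earlier cells the first was the dimmer one in wild type, with 87.7 and 104, against 203 and 336 on the other. Spt cells had 73.6, 72.2 and 65.7 on the first and 53.2, 79.6 and 55.5 on the other.

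At the 21-somite stage 12 of these 20 had lower values, against 49.9% of all probe sets. The adjusted test was passed by 1 gene, with lower values, against 0.51% of all probe sets. This was klf17, a Krüppel-like factor of zebrafish blood islands and hatching gland, with 182, 140.1 and 199 in spt tails, against 418, 441 and 654 in wild-type tails (log2 fold change -1.44 ± 0.21, adjusted p = 0.0175 by limma), a call lost under 3 of 14 alternative settings. At the earlier stage klf17 had 115, 119 and 109 in spt cells, against 119 and 131 in wild-type cells (log2 fold change -0.11). Cebpa and hhex had log2 fold changes of only -0.24 and -0.06 in the tails.

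Relatives of the 6 genes that act mainly outside blood gave no call at either stage. Of 17 listed, 8 were on the array, 5 of them with lower values in spt at the 4/5-somite stage (median log2 fold change -0.14) and 2 at the 21-somite stage (median 0.18). Gata3 had 206, 211 and 216 in spt tails, against 141, 163 and 115 in wild-type tails (log2 fold change 0.55, adjusted p = 0.259 by limma). Lmo3 and gata5 had log2 fold changes of 0.33 (adjusted p = 0.815) and 0.29 (adjusted p = 0.938) in the tails.

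Red cell genes, many of them known to be driven by Gata1, were read next. Of 43 erythroid genes listed (globins, heme synthesis, iron transport and membrane skeleton), 26 were on the array. At the 4/5-somite stage 19 of the 26 had lower values in spt, against 50.9% of all probe sets (median log2 fold change -0.38). None passed the adjusted test, and 7 had lower values with an unadjusted limma p under 0.05, against 3.63% of all probe sets. At the 21-somite stage 20 had lower values, against 49.9% of all probe sets (median -0.46). Of these 10 fell by the adjusted test, against 0.51% of all probe sets, and none of the 26 rose. The remaining 16 did not pass.

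The embryonic globin hbae3 had 157, 117 and 164 in spt cells at the 4/5-somite stage, against 6102 and 7227 in wild-type cells, a log2 fold change of -5.37 ± 0.33 (adjusted p = 0.0634 by limma), and it fell by 4.39 on the log2 scale in spt tails (-1.44 and -3.49 on its dimmer probe set). The beta-type embryonic globin hbbe3 fell by 4.37 in spt tails, with 196, 202 and 191 there, against 3172, 4914 and 5361 in wild-type tails. The other 5 that fell in spt tails, named after their values were seen, were the heme synthesis genes cpox, urod and alas2, the globin hbbe2 and the membrane skeleton gene epb41b, with log2 fold changes between -1.75 and -1.12. In the earlier cells hbbe3 had a log2 fold change of -3.80 (adjusted p = 0.190 by limma) and cpox of -3.90 (adjusted p = 0.131). Urod, alas2, hbbe2 and epb41b ran between -1.37 and -0.20 there. Several membrane and enzyme genes of red cells passed the test in the tails. Slc4a1a, the anion exchanger of the red cell membrane, had 11.7, 18.4 and 17.4 in spt tails, against 229, 287 and 113 in wild-type tails (log2 fold change -2.74, adjusted p = 0.00307 by limma). These spt signals were far under 100, and the log2 fold change ran between -3.57 and -1.72 under the alternative settings. In the earlier cells slc4a1a had signals of 128, 88.1 and 201 in spt and 102 and 80.1 in wild type (log2 fold change 0.48, adjusted p = 0.713). The red cell carbonic anhydrase gene cahz had a log2 fold change of -2.23 in the tails (adjusted p = 0.000187) and of -0.25 in the earlier cells (adjusted p = 0.688), and the spectrin gene sptb had -1.40 (adjusted p = 0.00520) and -0.55 (adjusted p = 0.688). Cahz was also dim, with 64.9, 66.0 and 72.0 in spt tails and only 93.1 and 113 in the earlier wild-type cells.

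**Figure D4:**
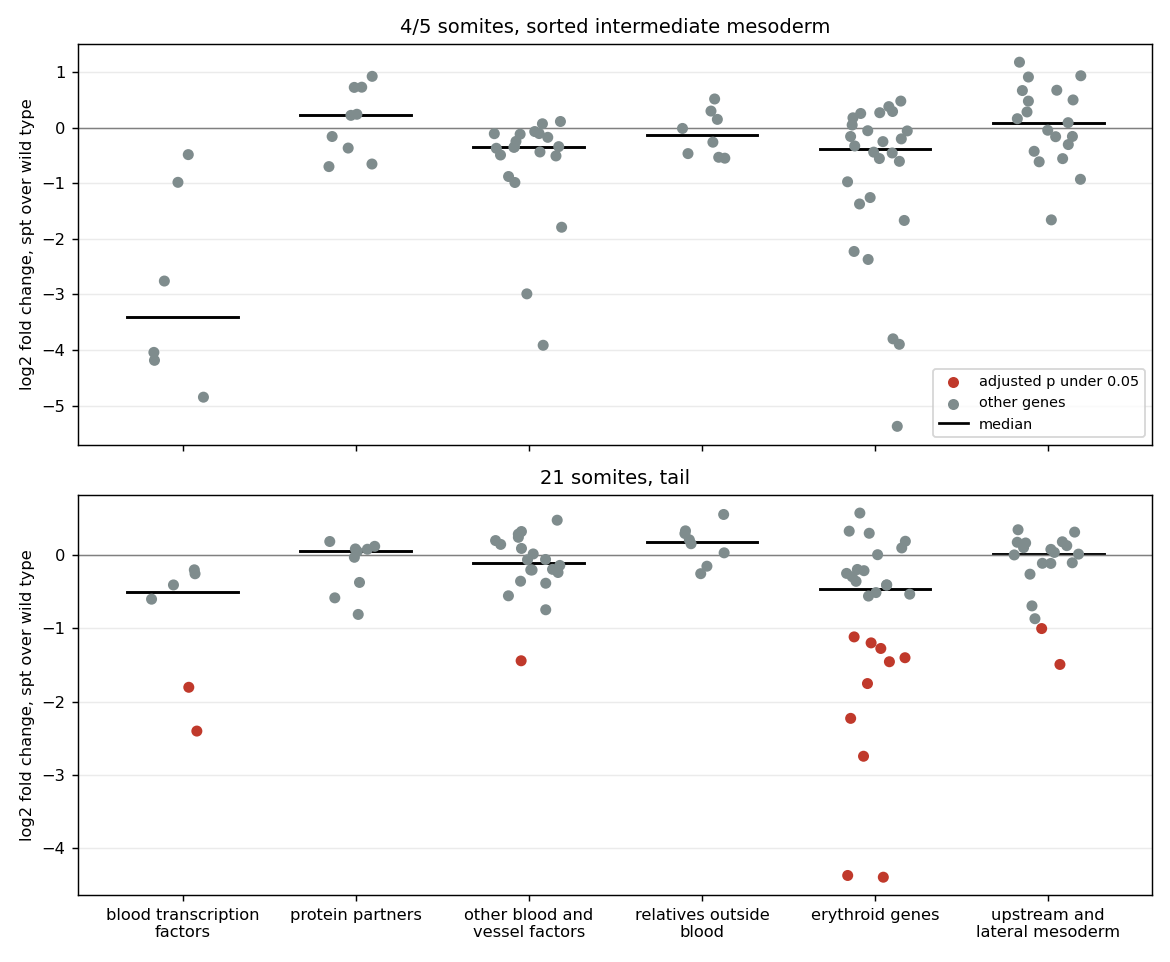
Log2 fold change (spt minus wild type) of the 6 genes and of the listed partners, other blood factors, relatives, erythroid genes and upstream genes at each stage, 1 point per gene (its brightest probe set). Red points passed an adjusted p under 0.05 and black lines are medians; the 6 genes have the lowest median at the 4/5-somite stage (-3.40), and most red points at the 21-somite stage are erythroid genes (10 of 26).

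Genes that act upstream of blood formation or mark posterior and lateral mesoderm had values on either side of 0. Of 20 listed, 19 were on the array, with a median of 0.09 in the earlier cells and of 0.01 in the tails. At the later stage 2 of the 19 fell by the adjusted test, against 0.51% of all probe sets. They were tbx16 itself and its close relative tbx16l. Tbx16l had 626, 707 and 796 in spt tails, against 1511, 1673 and 1159 in wild-type tails (mean in spt 49.0% of that in wild type, adjusted p = 0.0450 by limma), a call that was lost under 9 of 14 alternative settings.

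Markers of red cells and of other cell types were read beside these results, as sums over probe sets in which bright genes weigh most. The sum of 7 erythroid markers lay between 901 and 999 in spt cells and between 9739 and 9856 in wild-type cells at the 4/5-somite stage. The wild-type arrays of that stage were those left after the study set another aside partly for low red cell markers. There 6 of 7 had lower values and none passed the adjusted test, and the wild-type sum was mostly hbae3 and hbbe3. Alas2, cahz and slc4a1a had log2 fold changes of -0.20, -0.25 and 0.48. Their wild-type signals were low there, with 192 and 198 for alas2, 93.1 and 113 for cahz and 102 and 80.1 for slc4a1a. Whether low signal limited a fall in spt was not tested. In the tails the sum lay between 1041 and 1077 in spt and between 8472 and 13310 in wild type. There 7 of 7 fell by the adjusted test, against 0.51% of all probe sets. All 7 were also among the erythroid genes counted above, so these calls are not a separate result. Endothelium also uses gata2a, tal1 and lmo2. The sum over 5 endothelial markers was 1293 to 2021 in spt cells and 1741 to 2122 in wild-type cells, with fli1 the largest part. In these cells 3 of the 5 had lower and 2 had higher values in spt, and none passed the adjusted test. Plvapb had 192, 225 and 277 in spt cells, against 52.1 and 75.7 in wild-type cells. Kdrl had 38.2, 167 and 34.4 in spt cells, against 46.8 and 484 in wild-type cells. In the tails the sum was 1434 to 1836 in spt and 1065 to 1298 in wild type. There 5 of 5 had higher values in spt and none passed the adjusted test. Myeloid markers (6 genes) summed to 559 to 780 in spt cells and 732 to 789 in wild-type cells, and to 1101 to 1309 in spt tails and 1204 to 1366 in wild-type tails.

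Pronephros markers, which the sort by a pax2a transgene would also collect, summed over 5 genes to 1673 to 4500 in spt cells and 1556 to 1636 in wild-type cells. Of the 5, 2 had lower and 3 had higher values in spt cells, and none passed the adjusted test. The largest part of the highest spt sum, on replicate 3, was cdh17. It had 1825, 464 and 40.5 in spt cells, against 493 and 521 in wild-type cells (log2 fold change -0.51). Pax2a itself, on its brighter probe set, had 1012, 1293 and 517 in spt cells, against 268 and 267 in wild-type cells, whereas its dimmer probe set had 103, 146 and 95.8 in spt cells, against 156 and 164 in wild-type cells. In the tails the pronephros sum was 2606 to 3073 in spt and 1123 to 1799 in wild type, and cdh17, a cadherin of pronephric tubule, rose (log2 fold change 1.90, adjusted p = 0.00298 by limma). Muscle markers (5 genes) summed to 2348 to 2422 in spt tails and 4404 to 4537 in wild-type tails, with 2 of 5 falling by the adjusted test. Neural markers (5 genes) summed to 3910 to 5016 in spt cells and 5926 to 7037 in wild-type cells, with 4 of 5 lower in value. In the tails the order was the opposite, with 8118 to 8801 in spt and 5618 to 6161 in wild type, 5 of 5 higher in value and none past the adjusted test. Presomitic markers (5 genes) had lower sums in spt at both stages, with no overlap. They summed to 588 to 737 in spt cells and 1059 to 1426 in wild-type cells (3 of 5 lower in value), and to 4578 to 5307 in spt tails and 6948 to 11055 in wild-type tails, where 5 of 5 were lower in value and 2, her1 and mespba, fell by the adjusted test. Sums of notochord and epidermis markers overlapped between genotypes at both stages, and those of muscle in the earlier cells. No marker was at 0 on any array, and the part of these shifts in the values of the 6 genes was not tested.

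Similarity across arrays was described with log2 signals centred within each stage, over all 11 arrays, which share the contrast of spt and wild type. Among the 15 pairs of the 6 genes, gata1a and drl were the most alike (r = 0.96, with 0.97 over the arrays of each stage taken alone). Gata2a and tal1 followed at 0.91, and the least alike were lmo2 with drl and lmo2 with tal1, both at 0.44. Tal1 and lmo2 had r = 0.97 over the 5 arrays of the earlier stage and -0.17 over the 6 arrays of the later one.

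Outside the 6, among 6796 named genes with a wild-type mean of at least 100 at both stages, the globin hbae3 (r = 0.98) was among the 3 most like gata1a, with nob1 (0.98, on a probe set marked as cross-hybridising) and hdr (0.98), which encodes the hematopoietic death receptor. Hdr was also the gene most like drl (0.945), ahead of sb:cb230 (0.944) and mrps15 (0.941). The 3 genes most like gata2a were pmaip1 (0.98), dnajc21 (0.95) and taco1 (0.95). Those most like tal1 were pabpc4 (0.98), znf593 (0.97) and mpped2 (0.97). For nfe2 they were eif1axb (0.96), h2ax (0.95) and cldng (0.95). For lmo2 the values were lower, with glipr2 (0.89), pias4a (0.87) and fbxo25 (0.87).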

How the data were processed

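Affymetrix zebrafish arrays were read for 11 samples, 5 of intermediate mesoderm and 6 of tail. The deposited values were signal intensities on a linear scale that the authors made with MAS5 5.0, per the labels; whether arrays were scaled to a common level is not given in the sources used here. No scanner files and no detection calls were used. Control probe sets (115 of 15617) were left out. Signals were quantile normalized within each stage, 16 was added and log2 taken. Genotypes were compared within each stage with limma 3.58.1 in R 4.3.3 (lmFit and eBayes with a variance trend), with Benjamini-Hochberg adjustment over 15502 probe sets and a threshold of 0.05; the difference between stages was the interaction in a fit of all 11 arrays. The fits were run on simulated data first. For the interaction these data had the same spread at both stages, so they could not check that fit where the spreads differ. The number of arrays limits the precision, and p-values measure the spread between pooled samples.

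Of the probe sets, 10795 had 1 gene symbol in the platform annotation (8793 genes), 135 had several and 4572 had none. For listed genes, the probe set with the highest mean signal was used. Named from the lists were the genes that passed the adjusted test at either stage, up to 5 by smallest p, or otherwise the 3 with the smallest p at the 21-somite stage, and others where the text says so; likeness named the 3 most correlated genes. The 6 genes and all lists were chosen with earlier results of these data known. Alternatives were other normalizations, other added values (1 and 64), no variance trend, array weights, an unequal-variance test and leaving out each array. A filter on low signals (at least 100 on more than 50% of arrays) was also used. In addition, the study's candidate thresholds were put on limma's values. These were an unadjusted p under 0.05 and at least 1.5-fold at the 4/5-somite stage and 1.25-fold at the 21-somite stage.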

Additional observations from a re-analysis of the deposited data

Results flagged for a closer look

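The difference of gata1a between spt and wild type passed the test for a change in size between stages, but the call was not stable. The log2 fold change was -4.04 in the sorted cells of the 4/5-somite stage and -2.40 in the tails of the 21-somite stage, a change of 1.64 ± 0.30 (SE, adjusted p = 0.0446 by limma's interaction of genotype and stage). The call was lost under 12 of 15 alternative settings, with adjusted p between 0.0111 and 0.187. The wild-type level at the earlier stage comes from 2 arrays left after the study set another aside partly for low red cell markers such as gata1. The earlier fold was thus not independent of gata1a itself, and earlier folds of other red cell markers share this limit. All spt signals of gata1a in the tails were under 100, and stage, tissue and amplification cannot be told apart. The interaction also used a single spread for both stages, which can understate the noise of the earlier cells.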

How the results depend on the processing

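The log2 fold changes of the 6 genes kept their direction at both stages under every alternative run. At the 21-somite stage the calls of gata1a and drl were lost only under the unequal-variance test; gata1a had no value under the filter on low signals, which left 1 of the 6 called, and the unequal-variance test left 0. Calls over all probe sets at that stage numbered 107, with 0 under the unequal-variance test and 56 to 101 with 1 array left out (62 without wild-type replicate 2, 56 without spt replicate 5 and 63 without spt replicate 6). At the 4/5-somite stage no probe set was called, with 1 without the variance trend, 5 with array weights and 0 in each fit with 1 array left out; the study's candidate thresholds on limma's values gave 5 of the 6 genes. The count of the 6 with an unadjusted p under 0.05 there was 6, with 3 under the unequal-variance test and 3 to 5 with 1 array left out. The count whose difference changed between stages was 1, with 0 after normalizing both stages together, 0 with 1 added, 0 on deposited signals and 0 to 2 with 1 array left out.

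Reversals touched values with wide errors. At the 4/5-somite stage gata3 (0.30) was -0.058 with array weights and ran between -0.23 and 1.06 with 1 array left out (-0.20 without wild-type replicate 1). With 1 array left out there, tcf12 ran between -1.56 and 0.14, tcf3a between -1.60 and 0.27 and lmo4b between -0.028 and 1.56; the 2 E protein genes turned without wild-type replicate 1 and lmo4b without spt replicate 5. The stage difference of lmo2 (0.08) ran between -0.18 and 0.36 and turned in 4 of 11 such fits (without wild-type replicate 2 of the earlier stage, and wild-type replicates 1 and 3 and spt replicate 6 of the tails). Where a wild-type array of the earlier stage was left out, the lone one was assumed to vary like spt. No paired analysis was possible because the labels do not say which spt and wild-type samples belong together. At the earlier stage the study matched cell numbers of both genotypes within each replicate as far as possible. A pairing may thus exist that the labels do not give.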

Other observations

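The tal1 signal on spt replicate 3 of the 4/5-somite stage was not alone. On that array 31 probe sets gave 100 or more and at least 10 times the signal of both other spt arrays, against 11 on replicate 4, 11 on replicate 5 and 0 on any spt array of the 21-somite stage. The tubulin gene tuba8l3 was among them, chosen here after its values were seen, with 2097, 32.3 and 35.0 in spt cells, against 3034 and 3989 in wild-type cells. Unlike tal1 and tuba8l3, most of those with a gene name were higher on replicate 3 than on both wild-type arrays. Dusp22a, also chosen after its values were seen, had 934, 44.9 and 49.3 in spt cells, against 59.3 and 60.0 in wild-type cells.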
